A study of Mus musculus with 12 samples.

Results

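The 6 genes described here encode serum response factor (Srf), its coactivators myocardin (Myocd), MRTF-A (Mkl1) and MRTF-B (Mkl2), and the smooth muscle transcription factors Gata6 and Mef2c. They were chosen by gene symbol, each symbol matched 1 gene of the 50600 in the count files, and all 6 were among the 24660 genes that passed the filter on low counts. Their RNA was measured in the descending thoracic aorta, from the subclavian branch down to the diaphragm, in 12 C57BL/6J mice. All 3 groups of 4 mice carried the Elastin +/- genotype, so the loss of 1 copy of the elastin gene was shared by the controls and no mouse with both copies was included. Control mice drank regular water. On-drug mice drank water with minoxidil, which relaxes arteries by opening potassium channels gated by ATP, for 2 weeks from 2.5 to 3 months of age. Off-drug mice drank the same minoxidil water for 2 weeks and then drug-free water for 1 week. That schedule makes the last group about 1 week older, yet the age label is 3 months for every sample. Sex, cage and the hour of collection are not among the labels used here.

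SRF is a MADS-box protein that binds the CArG box, a short DNA element in the control regions of contractile, cytoskeletal and immediate-early genes. On its own it is a weak activator, and its output depends on the cofactor bound to it. Myocardin is made in smooth and cardiac muscle and drives contractile genes, whereas the MRTFs are made widely, are held in the cytoplasm by monomeric actin and enter the nucleus when actin polymerises. Ternary complex factors such as ELK1 compete with them for the same surface of SRF and direct it to growth-induced immediate-early genes. MEF2C is a MADS-box relative of SRF that is held in check by class II histone deacetylases and is known as an activator of the myocardin gene. GATA6 is a zinc-finger factor of differentiated vascular smooth muscle.

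The Srf promoter is shown first because it holds the element that SRF itself binds. In the 120 bases before the RefSeq start of Srf (GRCm38.p6, chr17:46556163-46556282, minus strand, written 5′ to 3′), 2 CArG boxes stand in capitals, beginning 82 and 62 bases before the start and 10 bases apart.

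Srf: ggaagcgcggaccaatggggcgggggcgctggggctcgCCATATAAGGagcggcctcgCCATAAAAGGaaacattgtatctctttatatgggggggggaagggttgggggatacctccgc

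A CArG box was defined as CC, then 6 bases that are each A or T, then GG, searched on both strands in RefSeq windows of 300 bases, from 250 before to 50 after a start. Such a box was found in 535 of 32851 promoters (1.63%), and 2 or more were found in 6 (0.0183%). The table gave 9 promoters for 4 of the 6 genes (Srf, Mkl1, Mkl2 and Mef2c), and of these 9 only that of Srf held a CArG box. A MEF2 site, searched by its usual consensus on both strands, was found in 1 of the 9, a promoter of Mkl2, and in 3.19% of all promoters. For the SRF pathway lists described further on, only genes with a promoter in the table could be searched. A box was found in 2 of 16 smooth muscle CArG targets, 3 of 16 MRTF cytoskeletal targets and 2 of 9 immediate-early genes. It was found in 1 of 18 partners of SRF and the MRTFs and in 1 of 11 repressors of myocardin. In the cardiac list 2 of 12 genes held a box (Actc1 and Myl7), and among all genes 1.81% did. Outside the cardiac list, 8 genes besides Srf held a box: Egr2, Vcl, Fhl2, Actg1, Filip1l, Hopx, Ldb3 and Myl9. Boxes of 3 of them, all called on drug and chosen after their values were seen, are shown as 30-base windows, again 5′ to 3′ on the gene's strand with the box in capitals. Egr2 and Fhl2 each held another box as well, near a different start, which is not shown. Egr2 (chr10:67537787-67537816, plus strand) is an immediate-early gene, Vcl (chr14:20929161-20929190, plus strand) encodes the adhesion protein vinculin, and Fhl2 (chr1:43163973-43164002, minus strand) encodes a LIM-domain cofactor of SRF.

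Egr2: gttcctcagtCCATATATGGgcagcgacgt
Vcl: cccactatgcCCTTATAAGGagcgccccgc
Fhl2: gcgcgtgtgtCCTTATATGGtcaaatgact

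A sequence match is a description of these letters and does not show that SRF was bound there in the aorta.

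Count totals ran from 41524501 to 109423243 per library, and mitochondrial genes took 10.01% to 12.44% of counts. The lowest count of any of the 6 genes in any library was 528, for Mkl1 in control replicate 3. Smooth muscle markers were high in every library, with Acta2, the smooth muscle actin, between 7007 and 9861 CPM (counts scaled to a common library size with TMM factors). Markers of other cells moved with the groups in part. The summed level of 6 endothelial markers was 617 to 713 CPM in controls, 789 to 923 on drug and 583 to 759 off drug. The summed level of 6 fibroblast markers was 3335 to 3798, 4135 to 4610 and 3296 to 3672 CPM in the same order. Of these 6, only the collagen gene Col1a1 was called on drug against control, with means of 930 CPM in controls and 1675 on drug. The other 5 were not called, and Dcn had a lower mean on drug (1664 against 1767 CPM). The summed level of 6 smooth muscle markers was 15828 to 18332, 18074 to 20740 and 17367 to 19905 CPM. Blood markers were lower off drug than in controls. The summed level of 6 erythroid markers was 4923 to 20558 CPM in controls, 3876 to 5998 on drug and 2037 to 4800 off drug. All 6 were called lower off drug than in controls (median log2 fold change -1.75), the haemoglobin genes among them being near-identical copies that can share reads. None of the 6 was called on drug against control (median -0.935) or off drug against on drug (median -0.766). In both of these comparisons all 6 log2 fold changes were below 0. The part of blood in the off-drug differences below was not tested. In RNA from whole tissue, fewer cells of a type and less RNA per cell cannot be told apart.

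Levels of different genes were compared per kilobase of exon. In controls Myocd stood highest, at 19.6 ± 2.46 CPM per kb (mean ± SD, n = 4 here and below), in the 88.5th percentile of protein-coding genes tested. Gata6 followed at 16.9 ± 0.749, Srf at 14.0 ± 2.14 and Mef2c at 10.6 ± 1.55 CPM per kb. Both MRTF genes were lower, Mkl2 at 3.42 ± 0.342 and Mkl1 at 1.83 ± 0.505 CPM per kb, the latter in the 39.0th percentile. Over the 12 libraries the ranges of Myocd, Gata6 and Srf overlapped one another, so their order was not resolved, and Srf overlapped Mef2c by a small margin (lowest 11.2 against highest 11.9 CPM per kb). Mef2c, with a lowest value of 7.91, lay above Mkl2, with a highest value of 4.90, and Mkl2, with a lowest value of 3.03, lay above Mkl1, with a highest value of 2.40 CPM per kb. Myocardin RNA was therefore the most abundant of the 3 coactivator RNAs in every library.

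**Figure D1:**
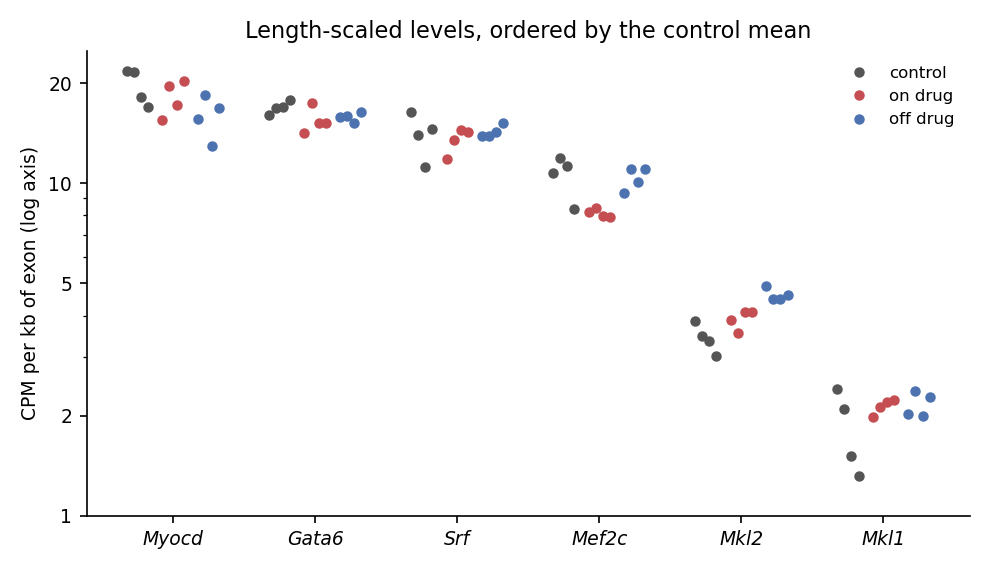
Level of each gene in CPM per kb of exon (log axis) in 12 libraries, one point per library, coloured by group and ordered by the control mean. Mkl2 and Mkl1 lie below the other 4 genes in all libraries, Mkl1 between 1.32 and 2.40 CPM per kb.

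Of the 6 genes, 1 was called in on drug against control (Mef2c, lower), 1 in off drug against control (Mkl2, higher) and 2 in off drug against on drug (Mkl2 and Mef2c, both higher). A call is a Benjamini-Hochberg adjusted p below 0.05 over all 24660 genes in edgeR's quasi-likelihood test, and it was made for 7.07%, 12% and 12.4% of all genes in these comparisons. By direction, 4.13% of genes were higher and 2.94% lower on drug than in controls, 6.27% higher and 5.77% lower in the off-drug group than in controls, and 5.44% higher and 6.92% lower off drug than on drug. The 2 compared groups did not overlap in CPM for 0, 1 and 2 of the 6 genes, and for 12.3%, 16.9% and 18.8% of all genes. With 6 genes these shares are too coarse to set the group apart from other genes. Among all genes 58.4% of calls on drug and 52.1% off drug were higher than in controls, and without composition factors in the scaling these shares were 72.8% and 68.9%. The 3 comparisons share groups, so they are not independent of one another. Adjusted p-values below come from this test, errors beside log2 fold changes are SEs, and intervals are 95% intervals of each gene alone.

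**Figure D2:**
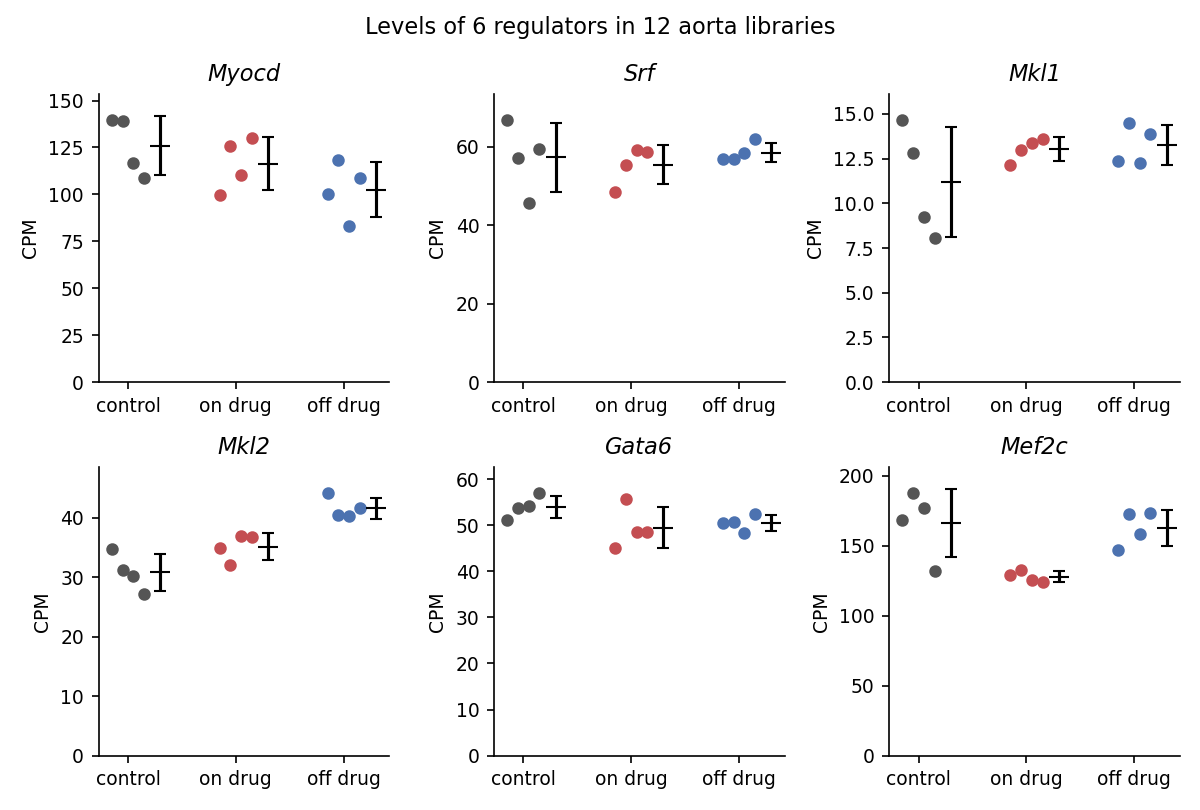
CPM of each gene (y axis from 0) in the 4 libraries of each group, one point per library, with the mean and SD as a bar beside them. Mef2c was 124 to 133 CPM in the 4 on-drug libraries, a range that also held control replicate 4 (132 CPM). Mkl2 was higher in the 4 off-drug libraries (40.3 to 44.1 CPM) than in all others.

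Srf, the DNA-binding partner of all 3 coactivators, held a steady level. In control replicates 1 to 4 it measured 66.8, 57.1, 45.7 and 59.5 CPM. On drug it measured 48.5, 55.2, 59.2 and 58.5 CPM, and off drug 56.8, 56.7, 58.3 and 62.0 CPM. The controls spanned the widest range, and both other groups lay inside it. The log2 fold change was -0.05 ± 0.09 on drug against control (interval -0.25 to 0.14, adjusted p = 0.813) and 0.03 ± 0.09 off drug against control (interval -0.17 to 0.22, adjusted p = 0.885). Between off drug and on drug it was 0.08 ± 0.09 (interval -0.11 to 0.27, adjusted p = 0.66). Each of these intervals leaves out a change of Srf RNA as large as that of Mkl2 between off drug and control.

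Myocd, the coactivator restricted to muscle, did not pass the test in any comparison. Control libraries measured 139.8, 139.0, 117 and 109 CPM, on-drug libraries 99.4, 126, 110.4 and 130.3 CPM, and off-drug libraries 100.3, 118, 83.3 and 109 CPM. Group means were 126 ± 15.8, 116 ± 14.2 and 103 ± 14.8 CPM. The lowest library of all was off-drug replicate 3, control replicates 1 and 2 were the highest, and all 3 groups overlapped. Off drug against control gave a log2 fold change of -0.30 ± 0.12 (interval -0.55 to -0.04, adjusted p = 0.127), a 1.23-fold lower level. It stayed above the threshold in all 20 other settings run, at adjusted p-values from 0.0583 to 0.287. On drug against control gave -0.11 ± 0.12 (interval -0.37 to 0.14, adjusted p = 0.639), and off drug against on drug -0.18 ± 0.12 (interval -0.44 to 0.07, adjusted p = 0.375).

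Mkl1, which encodes MRTF-A, was the least abundant and had the most variable controls. Its levels were 14.7, 12.8, 9.22 and 8.05 CPM in controls, 12.1, 13.01, 13.4 and 13.6 CPM on drug, and 12.4, 14.5, 12.2 and 13.9 CPM off drug. Control replicates 3 and 4 lay below every treated library, and control replicates 1 and 2 lay within or above them. The SD was 27.6% of the mean in controls, 5.02% on drug and 8.47% off drug. Log2 fold changes against control were 0.22 ± 0.15 on drug (interval -0.09 to 0.53, adjusted p = 0.421) and 0.24 ± 0.15 off drug (interval -0.07 to 0.56, adjusted p = 0.318). Without control replicate 1 the off-drug difference became 0.40 and passed the test at an adjusted p of 0.0378. Off drug and on drug differed by 0.03 ± 0.15 (interval -0.28 to 0.34, adjusted p = 0.943). Mkl1 shares 9 exon bases (0.147%) with Sgsm3 on the opposite strand, and counting did not use strand. Sgsm3 had 673 to 1467 counts per library, and Mkl1 had 528 to 1458.

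Mkl2, which encodes MRTF-B, rose off drug. Control libraries measured 34.7, 31.1, 30.1 and 27.2 CPM, on-drug libraries 34.8, 32.0, 36.9 and 36.7 CPM, and off-drug libraries 44.1, 40.3, 40.3 and 41.5 CPM. Every off-drug library lay above every library of the other 2 groups, and the on-drug and control groups overlapped. Off drug against control gave a log2 fold change of 0.43 ± 0.07 (interval 0.28 to 0.59, adjusted p = 0.000713), a 1.35-fold higher level. Off drug against on drug gave 0.24 ± 0.07 (interval 0.09 to 0.40, adjusted p = 0.0346), a 1.18-fold higher level. On drug against control gave 0.19 ± 0.07 (interval 0.04 to 0.34, adjusted p = 0.126), which did not pass.

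The rise of Mkl2 over controls passed in all 20 other settings, at adjusted p-values up to 0.00379. The rise over the on-drug group did not pass in 6 of them. These were the scaling without composition factors (adjusted p = 0.0698) and the fits without off-drug replicate 1 (0.0998), off-drug replicate 2 (0.0532), off-drug replicate 4 (0.0593), on-drug replicate 1 (0.0538) or on-drug replicate 2 (0.116). Without control replicate 1 the on-drug rise over controls passed, at 0.24 on the log2 scale with an adjusted p of 0.0379. The summed level of 6 macrophage markers was lower off drug, at 537 to 627 CPM. In controls it was 631 to 809 CPM and on drug 649 to 815 CPM. Of these 6 markers, 2 were called lower off drug against control and 3 against on drug. Log2 fold changes were above 0 for 2 of the 6 against control and for 0 against on drug. The part of the macrophage sum in the Mkl2 difference was not tested. Of the exon bases of Mkl2, 162 (1.8%) are shared with the antisense gene Gm15738, which had 151 to 367 counts per library, and counting did not use strand. Mkl2 itself had 1579 to 4362 counts.

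Gata6, a factor of the differentiated smooth muscle state, varied little. It measured 51.1, 53.8, 54.2 and 56.9 CPM in controls, 45.1, 55.7, 48.5 and 48.6 CPM on drug, and 50.5, 50.8, 48.3 and 52.4 CPM off drug. On-drug replicates 1 and 2 were the lowest and the second highest of the 12 libraries, so the on-drug group overlapped both others. Log2 fold changes were -0.13 ± 0.06 on drug against control (interval -0.26 to 0.01, adjusted p = 0.256), -0.10 ± 0.06 off drug against control (interval -0.23 to 0.04, adjusted p = 0.376) and 0.03 ± 0.06 off drug against on drug (interval -0.11 to 0.17, adjusted p = 0.829). Gata6 shares 58 exon bases (1.82%) with a gene on the opposite strand.

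Mef2c, the MADS-box relative of SRF, fell on drug and was higher again 1 week after the drug was stopped. Control libraries measured 168, 188, 177 and 132 CPM, on-drug libraries 129, 133, 125 and 124 CPM, and off-drug libraries 147, 173, 158 and 174 CPM. The 4 on-drug libraries lay closer together than those of either other group. Control replicate 4 lay inside the on-drug range, and the other 3 controls lay above it. On drug against control gave a log2 fold change of -0.38 ± 0.09 (interval -0.56 to -0.19, adjusted p = 0.0142), a 1.30-fold lower level. Off drug against on drug gave 0.35 ± 0.09 (interval 0.17 to 0.53, adjusted p = 0.0124), with no overlap between the groups. Off drug against control gave -0.03 ± 0.09 (interval -0.21 to 0.15, adjusted p = 0.877), so no difference was detected within those bounds.

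The rise off drug over on drug passed in all 20 other settings, at adjusted p-values up to 0.0422. The fall on drug did not pass with the scaling without composition factors (adjusted p = 0.0588) or without on-drug replicate 4 (adjusted p = 0.0502). Without control replicate 4 it was -0.48 on the log2 scale (adjusted p = 0.000484). Mef2c is also made in endothelial cells and macrophages, and the endothelial sum given above was higher on drug while Mef2c was lower. The part of cell composition in the Mef2c difference was not tested.

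**Figure D3:**
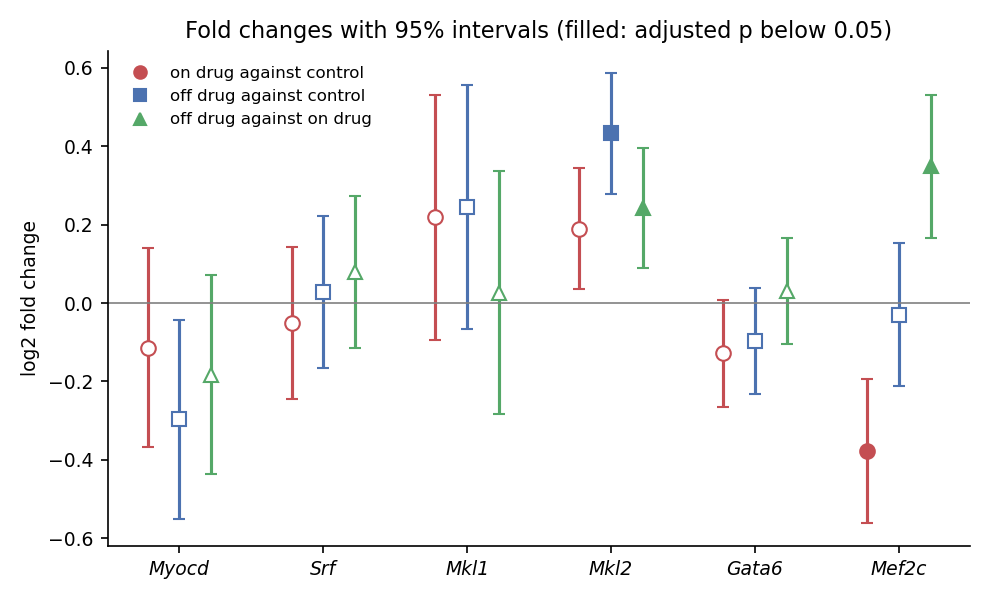
Log2 fold change (y axis) of each gene in the 3 comparisons, with 95% intervals of each gene alone and filled symbols where the adjusted p was below 0.05. The filled symbols are Mef2c on drug (-0.38) and off drug against on drug (0.35), and Mkl2 off drug against control (0.43) and against on drug (0.24).

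The balance between the regulators was described within each library as a ratio of CPM per kb, without a test. The ratio of Myocd to Mkl2 was 5.72 ± 0.362 in controls (5.41 to 6.25), 4.66 ± 0.701 on drug (3.99 to 5.50) and 3.46 ± 0.530 off drug (2.90 to 4.10). All 4 off-drug libraries lay below all controls, and the highest on-drug library overlapped the controls. Myocd to Srf was 1.42 ± 0.211 in controls, 1.34 ± 0.119 on drug and 1.12 ± 0.170 off drug, with overlapping ranges. Mkl2 to Mkl1 was 1.95 ± 0.367, 1.83 ± 0.119 and 2.15 ± 0.232 in the same order and overlapped as well. Mef2c to Myocd was 0.540 ± 0.0605 in controls, 0.454 ± 0.0595 on drug and 0.657 ± 0.0834 off drug, and the off-drug libraries (0.598 to 0.776) lay above all on-drug libraries (0.390 to 0.531).

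Whether the genes varied together between mice of 1 group was examined on deviations of log2 CPM from the group mean, with exact permutation within groups and adjustment over 15 pairs. Myocd and Mkl1 were the 1 pair that passed, with Pearson r = 0.741 over 12 libraries (exact permutation p = 0.00145, adjusted 0.0217) and a Spearman rank correlation of 0.825 (exact permutation p = 0.000868, adjusted 0.013). Without the 2 libraries farthest from the median of Myocd, r was 0.828. Control replicates 1 and 2 were high for both genes and control replicates 3 and 4 low for both. These controls also differed in the number of genes detected, 33190 and 33688 in replicates 1 and 2 against 37448 and 39017 in replicates 3 and 4. The part of that difference in the correlation was not tested, and how often other gene pairs reach such an r was not examined. Mkl1 and Mkl2 had r = 0.688 (exact permutation p = 0.0635, adjusted 0.318), which fell to 0.129 without the 2 libraries farthest from the median of Mkl1 and so rested on them. Mkl2 and Gata6 had r = -0.611 (exact permutation p = 0.0493, adjusted 0.318) and did not pass after adjustment. Srf and Myocd had r = 0.391 (exact permutation p = 0.255, adjusted 0.634).

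**Figure D4:**
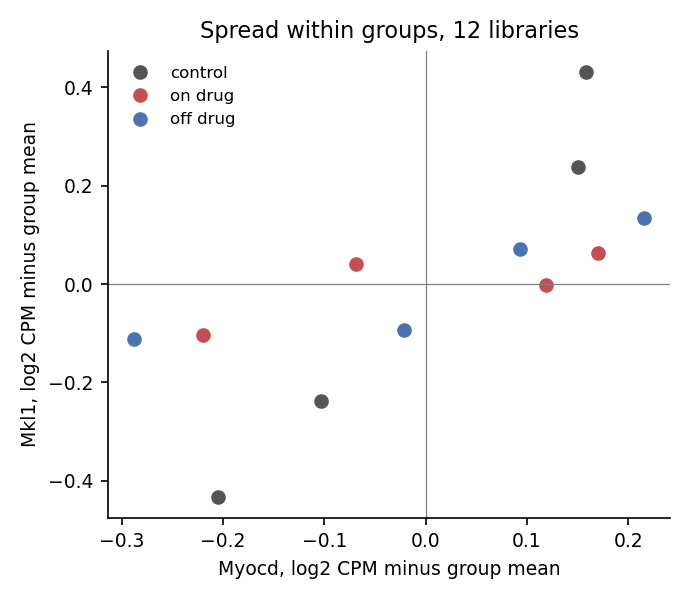
Deviation of Mkl1 (y axis) from its group mean against that of Myocd (x axis), both in log2 CPM, one point per library and coloured by group. The 12 points rise together (r = 0.741), and the 2 highest and the 2 lowest on the y axis are controls.

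For each gene the 3 most similar genes were sought by Pearson r of log2 CPM over the 12 libraries among 10691 well-expressed genes with official symbols. This is a description, since the highest values among so many genes are high in any data. Mkl2 was most like Rhobtb1 (r = 0.966), Man2c1 (0.962) and Card14 (0.961). Mef2c was most like Arap2 (0.954), Etnk1 (0.950) and Ola1 (0.949). Mkl1 was most like Scamp2 (0.948), Nfia (0.939) and Rnf214 (0.934), and Myocd was most like Ctnnd1 (0.918), Kat6a (0.916) and Ptpn21 (0.901). Srf was most like Adrm1 (0.904), Brf1 (0.881) and Gpr153 (0.862), and Gata6 was most like Nupl1 (0.905), Jdp2 (0.867) and Smurf2 (0.858). None of the 18 genes was itself 1 of the 6.

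The genes around the 6 regulators were described by gene lists from textbook knowledge, each with the number called and the median log2 fold change, beside medians of 0.0049, -0.00767 and -0.00107 over all genes in the 3 comparisons. Many of the counts below moved when 1 library was left out, and shifts of over 1.5 times are given for counts of 3 or more. Among 22 partners of SRF and the MRTFs that could be tested, 5 were called on drug against control, all higher (median 0.0997). Fhl2, with a CArG box printed above, rose by 0.44 ± 0.10 on the log2 scale, from 20.5 ± 2.90 to 27.8 ± 3.11 CPM (adjusted p = 0.0104). The count of 5 was 2 when control replicate 2, control replicate 3 or on-drug replicate 3 was left out, 3 when control replicate 4 or on-drug replicate 2 was, and 1 when on-drug replicate 4 was. Off drug, 1 of 22 partners was higher than in controls: Prrx1, a homeobox cofactor of SRF, rose from 86.4 ± 12.5 to 109 ± 5.51 CPM (0.34 ± 0.08, adjusted p = 0.0116). That count of 1 was 5 when control replicate 1 was left out. Against the on-drug group 3 partners fell, led by Tead1 (-0.45 ± 0.10, adjusted p = 0.00729), and 1 did when off-drug replicate 2 or 3 or on-drug replicate 3 or 4 was left out.

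Among 15 repressors of myocardin activity, Hdac7, a class II histone deacetylase that binds MEF2 proteins, was the 1 called on drug, rising from 19.6 ± 2.05 to 25.3 ± 0.996 CPM (0.36 ± 0.08, adjusted p = 0.00882). It fell again off drug, to 17.4 ± 0.811 CPM (-0.54 ± 0.08 against on drug, adjusted p = 0.000114). Mef2c moved the other way in both comparisons, and a link between Hdac7 and Mef2c was not tested. The endothelial sum given above was also highest on drug, and its part in the Hdac7 difference was not tested. Compared with controls, 1 repressor was higher and 1 lower off drug. Hey2, a Notch-responsive repressor, rose from 50.5 ± 3.95 to 67.5 ± 2.79 CPM (0.42 ± 0.08, adjusted p = 0.00222), and Klf4, a repressor of contractile genes, fell from 30.1 ± 2.24 to 23.3 ± 1.25 CPM (-0.37 ± 0.07, adjusted p = 0.00282). Against the on-drug group 2 were higher and 2 lower, and Hey2 and Klf4 moved in the same directions.

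Among 20 smooth muscle CArG targets 5 were called on drug against control, all higher (median 0.157), or 8 without on-drug replicate 1. They included Synpo2, an actin-binding protein gene (0.40 ± 0.06, adjusted p = 0.000803), and Actg2, an actin of smooth muscle (0.55 ± 0.09, adjusted p = 0.00211). In the off-drug group 5 were called against control, again all higher (median 0.0641). Smtn, which encodes the contractile protein smoothelin, rose from 155 ± 22.6 to 226 ± 7.13 CPM (0.55 ± 0.09, adjusted p = 0.000743), and Myh11, smooth muscle myosin heavy chain, from 4083 ± 375 to 4964 ± 219 CPM (0.28 ± 0.07, adjusted p = 0.0103). That count was 3 without control replicate 2, control replicate 3, off-drug replicate 4 or on-drug replicate 2, and 2 without control replicate 4 or off-drug replicate 1, 2 or 3. Off drug against on drug 1 was higher and 5 lower. The lower count was 3 without off-drug replicate 2 or 4, and 2 without off-drug replicate 3 or on-drug replicate 2, 3 or 4. All 6 smooth muscle markers whose sum is given above are on this list, so that sum is not a separate reading.

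The 20 MRTF cytoskeletal targets went up on drug in 5 cases and down in 1 (median 0.13), and off drug against control they went up in 1 and down in 8 (median -0.115). The first count was 8 without control replicate 1 and 3 without control replicate 3 or on-drug replicate 3. Off drug against on drug 1 was higher and 10 lower (median -0.241). With 1 library left out, the 8 lower genes ranged from 6 to 8 and the 10 from 7 to 11. Vcl, whose box is printed above, rose from 310.4 ± 19.7 to 402 ± 28.8 CPM on drug (0.37 ± 0.06, adjusted p = 0.00233) and fell to 291 ± 12.1 CPM off drug (-0.47 ± 0.06, adjusted p = 7.68e-05). Itga5, the alpha subunit of the fibronectin receptor, rose from 125 ± 13.4 to 227 ± 36.4 CPM (0.86 ± 0.10, adjusted p = 0.000102) and fell to 117 ± 0.632 CPM (-0.95 ± 0.10, adjusted p = 7.97e-06). Anln, which encodes the actin-binding protein anillin, was lower off drug (54.4 ± 0.831 CPM) than in controls (96.8 ± 14.6 CPM, -0.83 ± 0.09, adjusted p = 6.36e-06) while Mkl2 was higher. Tpm4, a cytoskeletal tropomyosin, fell from 311 ± 28.1 to 219 ± 10.3 CPM in the same comparison (-0.51 ± 0.07, adjusted p = 7.03e-05).

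The box-holding genes did not move in 1 direction on drug. Filip1l, the 1 gene of the cytoskeletal list that fell on drug, went from 439 ± 52.4 to 347 ± 24.3 CPM (-0.34 ± 0.08, adjusted p = 0.021). Its call was lost without control replicate 3, on-drug replicate 3 or on-drug replicate 4 (adjusted p up to 0.0639) and without composition factors (0.0705). On drug against control Actg1, Hopx, Ldb3 and Myl9 were not called (adjusted p = 0.9, 0.382, 0.268 and 0.904), although Ldb3 passed without on-drug replicate 1 (0.0112).

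The immediate-early list, which holds the targets of SRF with ternary complex factors and includes Srf, had the lowest medians. On drug 2 of 12 were called, both lower than in controls (median -0.491), and leaving out on-drug replicate 3 or 4 turned the count of 2 into 4 or 1. Off drug 8 were called, all lower than in controls (median -1.95), and against on drug 1 was higher and 8 lower (median -1.31). With 1 library left out these counts of 8 ranged from 8 to 10 and from 6 to 8. Egr2, a zinc-finger factor with a CArG box printed above, measured 10.8 ± 1.70 CPM in controls, 4.74 ± 1.70 on drug and 1.89 ± 0.313 off drug. Its log2 fold changes were -1.20 ± 0.21 on drug (adjusted p = 0.00368) and -2.52 ± 0.22 off drug (adjusted p = 4.08e-06) against control, with no overlap between groups. Junb, a subunit of AP-1, fell from 204 ± 69.6 CPM on drug to 44.9 ± 8.10 off drug (-2.18 ± 0.25, adjusted p = 0.000401). Srf, the 1 member of the 6 on this list, had the values given above.

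Clock genes changed beside the immediate-early genes. Of 16, 9 were higher and 2 lower on drug (neither of these 2 without on-drug replicate 4), and 10 were higher and 4 lower off drug, than in controls. The count of 9 ranged from 6 to 10 with 1 library left out and was 5 when the 2 groups were fitted alone. Cry1, a clock repressor, rose from 5.07 ± 0.448 to 22.5 ± 1.24 CPM off drug (2.15 ± 0.14, adjusted p = 7.97e-08), and Clock, an activator of the loop, fell from 145 ± 7.46 to 67.2 ± 5.61 CPM (-1.10 ± 0.08, adjusted p = 8.31e-08). With no hour of collection in the labels, drug group and hour cannot be told apart, and the part of the clock in the differences of Mkl2, Mef2c and the lists was not tested.

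**Figure D5:**
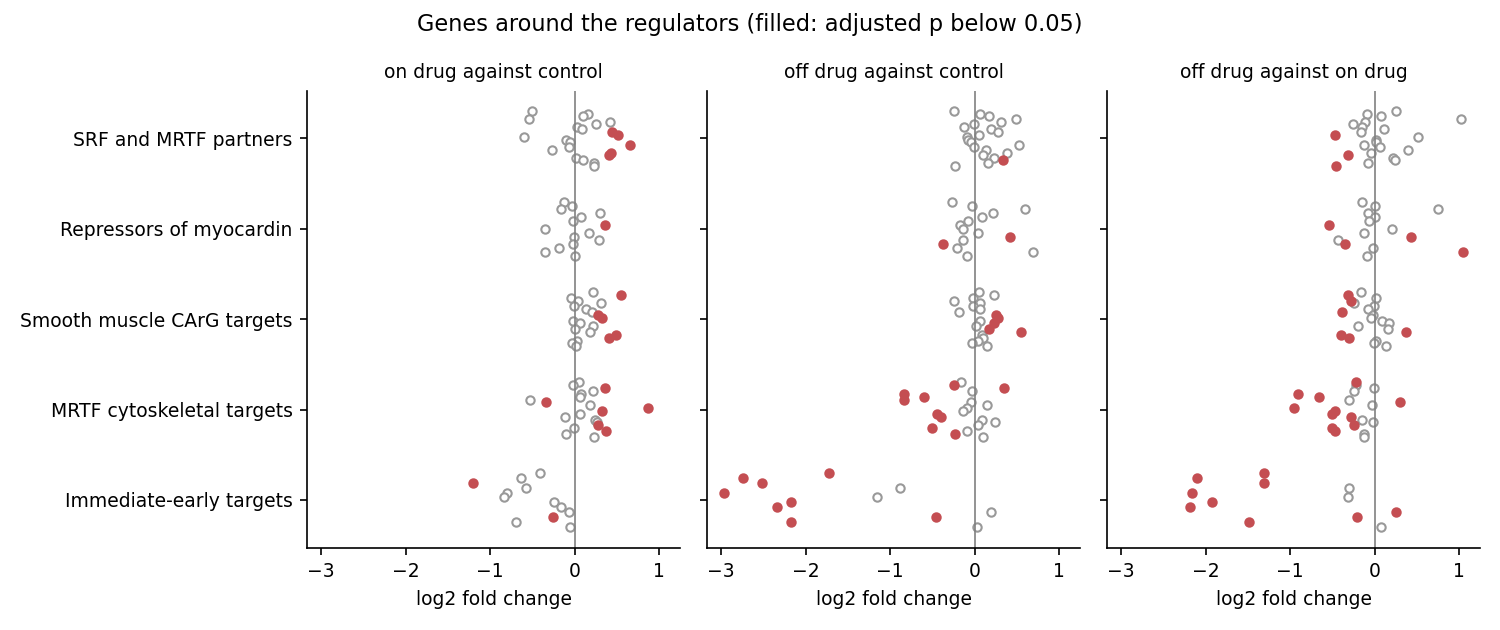
Log2 fold change (x axis) of each tested gene in 5 gene lists (rows) for the 3 comparisons (panels), one point per gene, filled where the adjusted p was below 0.05. The immediate-early genes lie to the left off drug (median -1.95 against control). Medians of the other lists run from -0.241 (MRTF cytoskeletal targets, off drug against on drug) to 0.157 (smooth muscle CArG targets, on drug against control).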

How the data were processed

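RNA-seq of 12 aortas was analysed from the deposited counts. The authors made whole-number counts of fragments per gene with featureCounts 1.4.6-p3 over the GENCODE M13 annotation, from alignments with a STAR index 2.5.3a, per the file headers. These record that fragments in several places or genes were counted for each of them, duplicates were ignored and no strand was set. GRCm38 is named in the submitters' processing notes. The authors' deposited table of log2 values equalled log2(count / size factor + 1) to within 5e-09 and served for symbols and positions.

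In R 4.3.3, edgeR 4.0.16 kept 24660 of 50600 genes (filterByExpr, minimum count 10, minimum total 15), scaled libraries by TMM and fitted 1 robust quasi-likelihood model to the 12 libraries. Comparisons were two-sided, with Benjamini-Hochberg adjustment over all genes and a threshold of 0.05. Standard errors came from the F statistic and intervals from the t quantile. CPM per kb used the exon length in the count files. Log2 CPM had a prior count of 2. Counts of the 18 replicate pairs differed by more than sampling noise (chi-square per degree of freedom 25.9 to 117.5). The edgeR test of on drug against control was also run on simulated counts, and the correlation and promoter steps were not.

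The 6 genes, the lists and the settings were chosen with earlier results of these data known. Named list genes are up to 3 called genes per list and comparison with the smallest adjusted p and a mean log2 CPM of at least 1. Values of some items under this rule are not reported here, although counts include them. Other settings were DESeq2 size factors, no composition factors, no filter, a stricter filter (4 libraries with a CPM of 1 or more), DESeq2 1.42.0, limma-voom (limma 3.58.1), the 2 compared groups alone, the replicate number as a block and each library left out in turn. Promoters came from RefSeq (GRCm38.p6).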

Additional observations from a re-analysis of the deposited data

Results flagged for a closer look

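None of the 18 values of the 6 regulators (6 genes in 3 groups) had a library far from the other 3 of its group by Dixon's test, whose 95% critical value for 4 samples is 0.829. Among the 147 gene-by-group values examined, 6 did, in 5 genes of the lists, and chance gives about 1 in 20 groups. Synpo2 was 546.2 CPM in on-drug replicate 2, with the others at 515.2 to 516.9. Smtn was 150.2 CPM in on-drug replicate 1, with the others at 181.3 to 186.6. Hey2 was 40.86 CPM in the same library, with the others at 52.23 to 54.2. The clock gene Cry2 was 19.61 CPM in that library too, against 28.07 to 28.93 in the others, and 20.07 CPM in control replicate 4, against 14.53 to 14.92. Per3 was 55.47 CPM in on-drug replicate 4, with the others at 35.26 to 38.57.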

How the results depend on the processing

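The 18 fold changes of the 6 genes were recomputed in 20 other settings, and of 360 values 339 kept their direction and their side of the threshold, 8 lost a call, 2 gained one and 11 changed sign. For named genes of the lists, 1476 of 1580 kept both. The cause of these changes was not tested, and the fits with a library left out also had fewer samples. Without composition factors, Mef2c on drug was -0.35 (adjusted p = 0.0588), Mkl2 off drug against on drug 0.26 (adjusted p = 0.0698) and Mef2c off drug against control 0.02344, and 388 genes were lower on drug and 844 lower off drug than in controls, against 725 and 1422. With that scaling Myl9 and Actg1 on drug were 0.01918 and 0.01006 and Filip1l off drug 0.01728. DESeq2 called 1324 genes lower on drug, and the 2 groups alone called 684 higher and 463 lower. limma-voom gave Actg1 on drug as 0.0007726.

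Same-numbered libraries did not deviate together (correlations of deviations -0.0797 to 0.0672 over 12 pairs), so the numbers were not taken as pairing. The replicate block changed no call of the 6 genes (Mef2c -0.37 and 0.35, Mkl2 0.43 and 0.24) and called 925 genes higher and 633 lower on drug, 1442 and 1349 off drug, and 1303 and 1744 between off drug and on drug.

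With 1 library left out at a time, the log2 fold changes on drug ranged from -0.1499 to 0.02525 for Srf, from 0.13 to 0.2449 for Mkl2, from -0.4793 to -0.3256 for Mef2c and from -0.08738 to 0.03412 for Actg1. Off drug against control they ranged from -0.0668 to 0.1079 for Srf, from 0.115 to 0.4006 for Mkl1, from -0.1262 to 0.02667 for Mef2c and from -0.09557 to 0.03817 for Filip1l. Off drug against on drug they ranged from -0.01999 to 0.06768 for Mkl1, from 0.205 to 0.2707 for Mkl2 and from -0.008422 to 0.0956 for Gata6. Genes called ranged from 472 to 1330 higher and 323 to 960 lower on drug, with the lowest counts without on-drug replicates 3 and 4, and from 1003 to 1926 higher off drug, with the lowest without control replicate 3. Each value of the 6 genes rested on at least 528 counts, and how much of their spread is counting error was not separated.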

Other observations

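A list of 12 cardiac genes that MEF2C, GATA6 and myocardin activate in the heart was examined as well, and 10 of them could be tested in this tissue. Tnnt2, which encodes cardiac troponin T, measured 3.97 ± 0.900 CPM in controls, 7.09 ± 1.37 on drug and 7.62 ± 1.77 off drug (SD, n = 4). In edgeR's quasi-likelihood test it was the 1 gene of the list called off drug against control (log2 fold change 0.94 ± 0.19, adjusted p = 0.00442). It was also called on drug (0.83 ± 0.19, adjusted p = 0.016), but not without control replicate 2 or 3 or on-drug replicate 3 or 4. The summed level of 6 cardiac markers, Tnnt2 among them, was 7.66 to 23.1 CPM in controls, 8.97 to 24.0 on drug and 11.96 to 32.4 off drug, so the groups overlapped. The summed level of 8 skeletal muscle markers did not overlap with controls, at 4.94 to 6.37 CPM in controls, 7.35 to 10.005 on drug and 6.47 to 17.9 off drug. Of these 8, 2 were called higher on drug (Ckm and Tnnt3) and 1 off drug (Ckm), against control. Log2 fold changes against control were above 0 for 5 of the 8 on drug and for all 8 off drug. For Myh4, 1 library held 528 of the 702 counts. Ckm, muscle creatine kinase, measured 2.42 ± 0.230, 4.00 ± 0.629 and 4.39 ± 0.712 CPM in controls, on drug and off drug (adjusted p = 0.00824 and 0.00101 against control). The part of either muscle in the Tnnt2 difference was not tested.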
